A study of Mus musculus with 2 samples.

Results

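Mouse splenic CD8+ T cells of wild-type (WT) genotype were cultured for 30 h on 20 pmol of plate-bound peptide M9C or on 20 pmol of plate-bound peptide L6F, and their single-cell transcriptomes were compared across all genes. The peptides were presented by H-2Db, a mouse class I MHC molecule, coated onto the culture plate as biotinylated monomers. The deposited description gives both peptides as chains of 9 residues that differ at positions 6 and 9. In it each peptide carries the residue with which its name begins, whereas a substitution name usually ends with the new residue. Groups follow the names tied to the hashtags, and a reversed way of writing the names and an exchange of the names cannot be told apart from the deposited text, which bears on every direction given between M9C and L6F. The same experiment held cultures on 2 pmol and 0.2 pmol M9C, on 80 pmol L6F, and rested cells kept without peptide. Each culture was stained with its own hashtag antibody, sorted for live cells, pooled with the others and loaded on 1 droplet lane. The pool was read as 1 transcriptome library and 1 hashtag library. The sources used here do not say which T cell receptor the cells carried, and each condition was 1 culture.

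A barcode was assigned to a culture where its top hashtag had 20 or more counts and 80% or more of its hashtag counts. It was kept where it also had 500 or more genes and at most 10% of its UMIs (unique molecular identifiers, 1 per captured RNA molecule) from mitochondrial genes. This left 1869 M9C cells and 2477 L6F cells, 4346 of the 10600 cells kept in all 6 cultures and of 13439 barcodes. The cell filters removed 72 barcodes with the M9C hashtag and 38 with the L6F hashtag. Of the 1583 barcodes with the rested hashtag they removed 828 (52.3%), and the 755 kept had a median of 576 genes. Rested values therefore stand for a selected part of that culture. The hashtag barcodes, 15 bases long and different at 12 positions, decided which cells entered each group, and the median cell had 97.7% of its hashtag counts on its own barcode in the M9C culture and 98.5% in the L6F culture.
Hashtag of the 20 pmol M9C culture: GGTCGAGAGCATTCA
Hashtag of the 20 pmol L6F culture: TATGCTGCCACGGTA

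A CD8+ T cell reads a peptide-MHC complex through its T cell receptor, and the receptor passes the signal on through calcium and NFAT, through Ras and Erk, and through NF-kB. These routes switch on cytokines, chemokines, costimulatory and inhibitory receptors and the genes that dampen each route. The activated cell meanwhile lowers genes of the resting state, such as the receptor for the survival cytokine IL-7, grows, and starts to divide.

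Summed over cells, the cultures held 12916714 UMIs with M9C and 16014100 UMIs with L6F. The median cell had 6943 UMIs and 2416 genes with M9C, against 6354 UMIs and 2291 genes with L6F. Mitochondrial genes took a median of 1.59% of a cell's UMIs with M9C and 1.797% with L6F. Levels are given as CPM, the UMIs of a gene scaled to 1000000 UMIs per culture, and a gene was treated as measured at 10 CPM or more in either culture, which 7014 genes were. A count of 3 UMIs, the most that a gene listed at 0 could have missed, corresponds to 0.232 CPM with M9C and 0.187 CPM with L6F, but to 3.26 CPM in the 755 shallower rested cells. All intervals are 95% counting intervals and cover counting error only. Those of levels and ratios treat each UMI as a separate draw and leave out the spread between cells. They are too narrow where few cells hold most UMIs of a gene, as for Ccl1 and Ifng. With 1 culture per condition no spread between cultures can be measured and no test between the peptides can be made.

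CD8 T cell markers were the most abundant of the lineage markers examined. Their 6 genes summed to 3396 CPM with M9C and 3100 CPM with L6F, and 98.8% of M9C cells and 98.7% of L6F cells had 3 or more UMIs of them. Markers of gamma-delta T cells summed to 64.4 CPM with M9C, against 106 CPM with L6F, nearly all of it from Trdc, the constant region of the delta chain, and 3.80% of M9C cells and 7.51% of L6F cells had 3 or more UMIs of that list. The B cell list summed to 222 CPM with M9C and 254 CPM with L6F, almost wholly from Ighm, while Ms4a1 and Pax5 were at 0 in both. Neutrophil markers were at 0 in both, NK cell markers summed to 1.16 CPM with M9C and 1.81 CPM with L6F, and macrophage markers to 2.79 CPM with M9C and 16.7 CPM with L6F. The part of these cells in the results was not tested beyond leaving out every cell with a UMI of a defining marker of another lineage (Ighm not counted), which left 1227 of 1869 M9C cells and 1397 of 2477 L6F cells. Trdc weighed most in this, with a UMI in 480 M9C cells and 862 L6F cells. As 1 UMI was enough, many cells with CD8 T cell markers were left out too. With those cells left out, the 2-fold counts were 64 higher and 48 lower, and 55 and 44 of these genes were also past 2-fold with all cells.

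Of the 7014 measured genes, 62 (0.884%) were 2-fold or more higher with M9C and 53 (0.756%) were 2-fold or more lower. At 1.5-fold the counts were 159 higher (2.27%) and 180 lower (2.57%). The median log2 ratio of M9C over L6F over all measured genes was 0.02, with 3796 genes above 0 and 3218 below. These counts and shares over all measured genes are the background for every list count given further on. Since M9C cells held more UMIs on average, the scaling mattered for the split. Counted as UMIs per cell, the ratios of all genes moved up by 0.10 on the log2 scale and 74 genes were 2-fold higher and 35 lower, against 62 and 53 in CPM. The genes higher with M9C included 60 protein-coding genes of 62. Ranked by the interval bound nearest to equal levels, with a minimum of 20 CPM in the higher culture, the higher genes were led by Cavin3, Twist1, Ccl1, Xcl1 and Il2. The lower genes were led by Ctla2a, Ly6c2, Il7r, Rasgrp2 and Slfn1 in the same ranking.

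**Figure D1:**
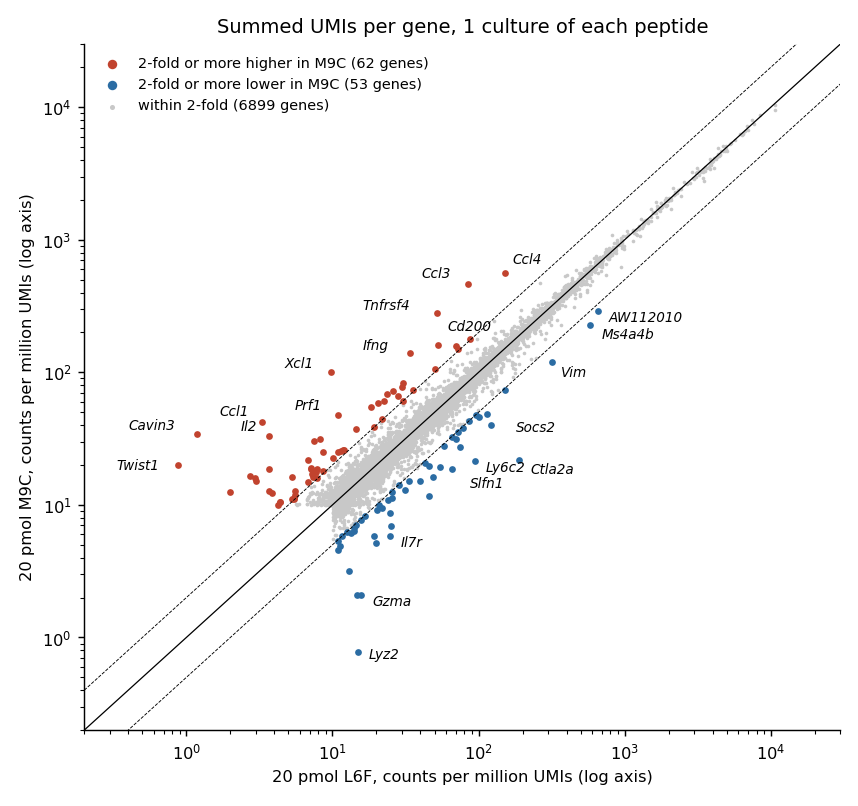
Summed UMIs of each measured gene in the 20 pmol L6F culture (horizontal, CPM, log axis) and the 20 pmol M9C culture (vertical, CPM, log axis), with 1 point per gene, equal levels on the solid line and 2-fold on the dashed lines. The 62 red genes lie 2-fold or more above the line of equal levels and the 53 blue genes 2-fold or more below it, while most genes sit within 2-fold.

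A further pair of cultures, 2 pmol M9C and 80 pmol L6F, took no part in choosing these genes. The doses differ, so the pair is not a repeat, and its values are given side by side with no test. Over all genes measured in that pair, 49 of 7044 (0.696%) were 2-fold higher with M9C and 70 (0.994%) were 2-fold lower, and at 1.5-fold 146 (2.07%) were higher and 275 (3.9%) lower. Of the 62 genes higher with M9C at 20 pmol, 61 were higher in this pair too, 43 of them 2-fold or more and 55 of them 1.5-fold or more, with a median log2 ratio of 1.43. Of the 53 genes lower with M9C at 20 pmol, 52 were lower, 39 of them 2-fold or more and 49 of them 1.5-fold or more, with a median of -1.29. With 0.2 pmol M9C in place of 2 pmol, against 80 pmol L6F, the medians were 0.97 for the genes higher and -0.85 for the genes lower with M9C. The higher genes lay above both L6F cultures in all 3 M9C cultures in 59 of 62 cases, against 31.4% of all measured genes, and the lower genes lay below both L6F cultures in 51 of 53 cases, against 26.2%. The 20 pmol cultures chose the genes, so part of that order is fixed by the choice. The exceptions were Batf3, Lgals7, Ccl1, Hist1h3d and Lgals3.

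**Figure D2:**
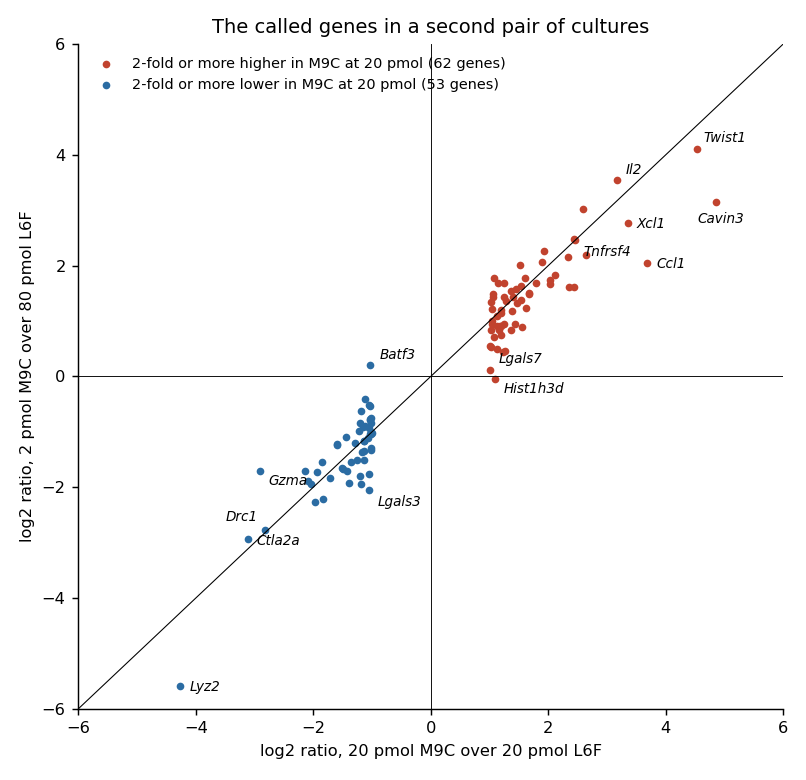
Log2 ratio of CPM of 2 pmol M9C over 80 pmol L6F (vertical) against that of 20 pmol M9C over 20 pmol L6F (horizontal), with 1 point for each of the 115 genes past 2-fold at 20 pmol and equal ratios on the diagonal. All but Hist1h3d among the red genes lie above 0 and all but Batf3 among the blue genes lie below 0 on the vertical axis.

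Rested cells placed these genes on a wider scale. In 52 of the 62 genes higher with M9C, the levels stood in the descending order 2 pmol M9C, 80 pmol L6F, rested cells, an order found in 35.6% of all measured genes. Of the 62, 17 were listed at 0 in rested cells, against 24 of all 7014 measured genes. A listed 0 in the shallow rested cells can stand for a level of up to 3.26 CPM. In 32 of the 53 genes lower with M9C the order was the reverse, with rested cells highest, against 24.8% of all measured genes. All comparisons with rested cells, here and further on, are in CPM. A rested cell held 1217 UMIs on average, against 7036 at 2 pmol M9C and 6247 at 80 pmol L6F. Counted as UMIs per cell, a gene below its rested level in CPM can lie above it, which was not tested. Ctla2a and Socs2 were among the lower genes that stood higher in both L6F cultures than in rested cells.

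Secreted signals made up 6 of the 62 genes higher with M9C. Of 29 cytokine and chemokine genes in the list, 15 were measured, 6 were 2-fold or more higher with M9C, 1 was 2-fold lower, and the median log2 ratio was 0.23. Ccl3 and Ccl4, which encode the macrophage inflammatory proteins that draw in other leukocytes, were the most abundant of the 6. Ccl4 stood at 312, 416 and 565 CPM at 0.2, 2 and 20 pmol M9C, 151 and 99.2 CPM at 20 and 80 pmol L6F, and 13.1 CPM in rested cells. At 20 pmol that was 3.74-fold higher with M9C (3.57 to 3.91). Ccl3 was listed at 225, 321 and 465 CPM at 0.2, 2 and 20 pmol M9C, 84.8 and 58.03 CPM at 20 and 80 pmol L6F, and 16.3 CPM in rested cells, which made it 5.49-fold higher with M9C (5.17 to 5.83) at 20 pmol. Both genes were higher at each higher M9C dose and higher in each M9C culture than in either L6F culture, and the higher L6F dose gave the lower level. The genes are neighbours on mouse chromosome 11 (GRCm38, chr11:83647844-83649355 and chr11:83662584-83664683), 13229 bases apart.

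Xcl1, a chemokine that draws in cross-presenting dendritic cells, had 28.7, 64.8 and 100.5 CPM at 0.2, 2 and 20 pmol M9C, 9.80 and 9.50 CPM at 20 and 80 pmol L6F, and 4.35 CPM in rested cells. It was 10.2-fold higher with M9C (8.68 to 12.2) at 20 pmol, and both L6F cultures were closer to the rested level than to any M9C culture. Il2, the T cell growth factor, had 10.5, 22.1 and 33.1 CPM at 0.2, 2 and 20 pmol M9C, 3.68 and 1.89 CPM at 20 and 80 pmol L6F, and 1.09 CPM in rested cells. The Il2 ratio at 20 pmol was 8.99-fold higher with M9C (6.84 to 12.02). Its level was higher at each higher M9C dose and both L6F cultures were below the lowest M9C culture. Ifng, which encodes interferon gamma, had 68.1, 97.7 and 139 CPM at 0.2, 2 and 20 pmol M9C, 33.97 and 30.8 CPM at 20 and 80 pmol L6F, and 6.53 CPM in rested cells, and was 4.10-fold higher with M9C (3.72 to 4.52) at 20 pmol. In the M9C culture 69.1% of all Ifng UMIs came from the 19 cells with the most, and leaving out cells with a marker of another lineage lowered the ratio to 2.34-fold.

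Ccl1, a chemokine for CCR8, had 0.879, 28.5 and 42.5 CPM at 0.2, 2 and 20 pmol M9C, 3.31 and 6.89 CPM at 20 and 80 pmol L6F, and 0 CPM in rested cells, and was 12.8-fold higher with M9C (9.68 to 17.4) at 20 pmol. It was carried by few cells, with UMIs in 37 M9C cells and 91.3% of them in 19 cells, and it fell out of the peptide order at 0.2 pmol M9C. Other members were within 1.5-fold, among them Tnf with a log2 ratio of 0.20, Lta with -0.11 and Ccl5 with 0.53. Lower with M9C were Tnfsf10, which encodes the death ligand TRAIL, at 5.81 CPM with M9C and 11.7 CPM with L6F (2.01-fold lower with M9C (1.53 to 2.67)), and by less than 2-fold Il16 (-0.86) and Ltb (-0.69), the lymphotoxin chain. Tnfsf10 was inside 2-fold at a log2 ratio of -0.91 as UMIs per cell, -0.98 with hashtag assignment by HTODemux (a Seurat method) and -0.98 in cells with 4000 or more UMIs.

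**Figure D3:**
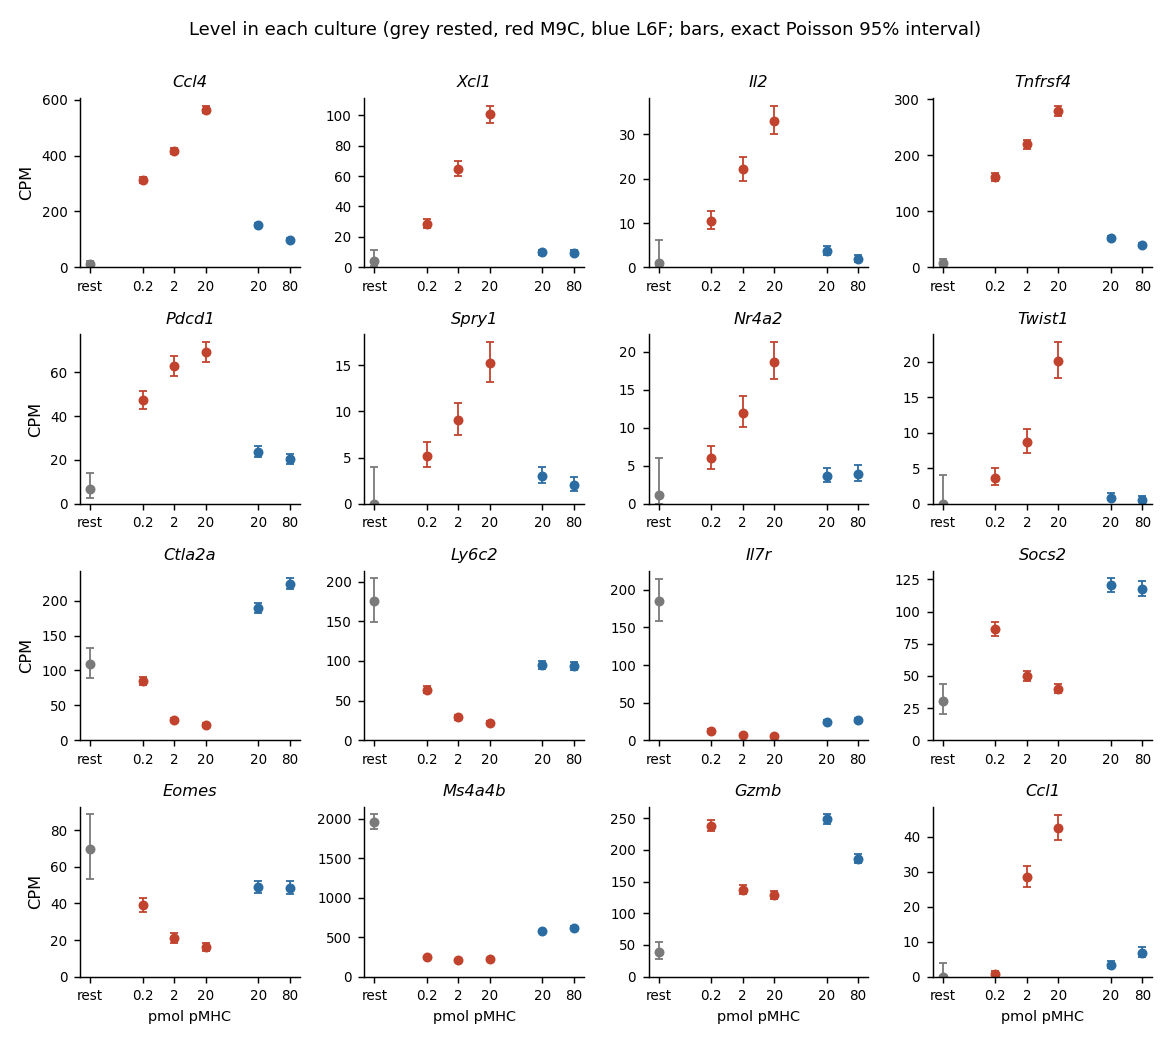
Level of 16 genes (vertical, CPM, linear axis from 0) in each of the 6 cultures, with rested cells in grey, M9C at 0.2, 2 and 20 pmol in red and L6F at 20 and 80 pmol in blue, 1 culture per point and bars for exact Poisson 95% counting intervals. Ccl4, Xcl1, Il2, Tnfrsf4, Spry1, Nr4a2 and Twist1 climb with M9C dose above both L6F cultures, while Ctla2a, Ly6c2, Il7r, Socs2 and Eomes stand higher in both L6F cultures and decline with M9C dose.

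The difference in chemokine level was also a difference in how many cells carried the RNA. Shares were taken at equal depth by thinning each cell to 2000 UMIs, which left out 36 M9C cells and 57 L6F cells and kept 1833 and 2420. Ccl4 UMIs were found in 44.3% of M9C cells (42.01% to 46.6%) and 15.5% of L6F cells (14.1% to 17.04%). Ccl3 UMIs were found in 36.6% of M9C cells (34.3% to 38.8%) and 10.6% of L6F cells (9.42% to 11.9%). Without thinning the Ccl3 shares were 58.3% of M9C cells and 20.8% of L6F cells, and the Ccl4 shares were 63.9% and 28.5%. Cells with a Ccl4 UMI held 2.43 UMIs on average with M9C and 1.896 with L6F. Cytokines of lower level were found in fewer cells. Xcl1 was in 12.5% of M9C cells (11.1% to 14.2%) and 1.69% of L6F cells (1.22% to 2.29%), and Il2 in 5.13% of M9C cells (4.16% to 6.24%) and 0.537% of L6F cells (0.286% to 0.917%). Ifng was in 6.93% of M9C cells (5.81% to 8.19%) and 3.84% of L6F cells (3.11% to 4.69%), with 3.52 UMIs per positive cell with M9C and 2.097 with L6F.

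At 1000 UMIs per cell, a depth that 464 rested cells reached, Ccl4 was found in 30.4% of M9C cells, 9.97% of L6F cells and 0.862% of rested cells. The shares for Tnfrsf4 at that depth were 20.7% of M9C cells, 4.05% of L6F cells and 0.431% of rested cells. No other cell type was present in numbers that could give a background share, so the rested share is the lowest available, at a median of 1056 UMIs per rested cell before thinning. That share can hold both free RNA and RNA of the cells themselves.

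Ccl3 and Ccl4 tended to be found in the same cells of both cultures. At 2000 UMIs per cell, 27.6% of M9C cells had both and 5.74% of L6F cells had both, where the products of the single shares were 16.2% with M9C and 1.65% with L6F. Among M9C cells with a Ccl3 UMI, 75.4% had a Ccl4 UMI, against 26.4% of M9C cells without Ccl3. Among L6F cells with a Ccl3 UMI, 54.1% had a Ccl4 UMI, against 10.96% of those without. The summed Ccl3 and Ccl4 UMIs were 0 in 46.7% of M9C cells and 79.6% of L6F cells, and reached 10 or more in 3.11% of M9C cells and 0.331% of L6F cells. Cells with both Ifng and Il2 were few, 12 of 1833 with M9C (0.655%) and 0 of 2420 with L6F, with an exact upper bound of 0.152%.

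**Figure D4:**
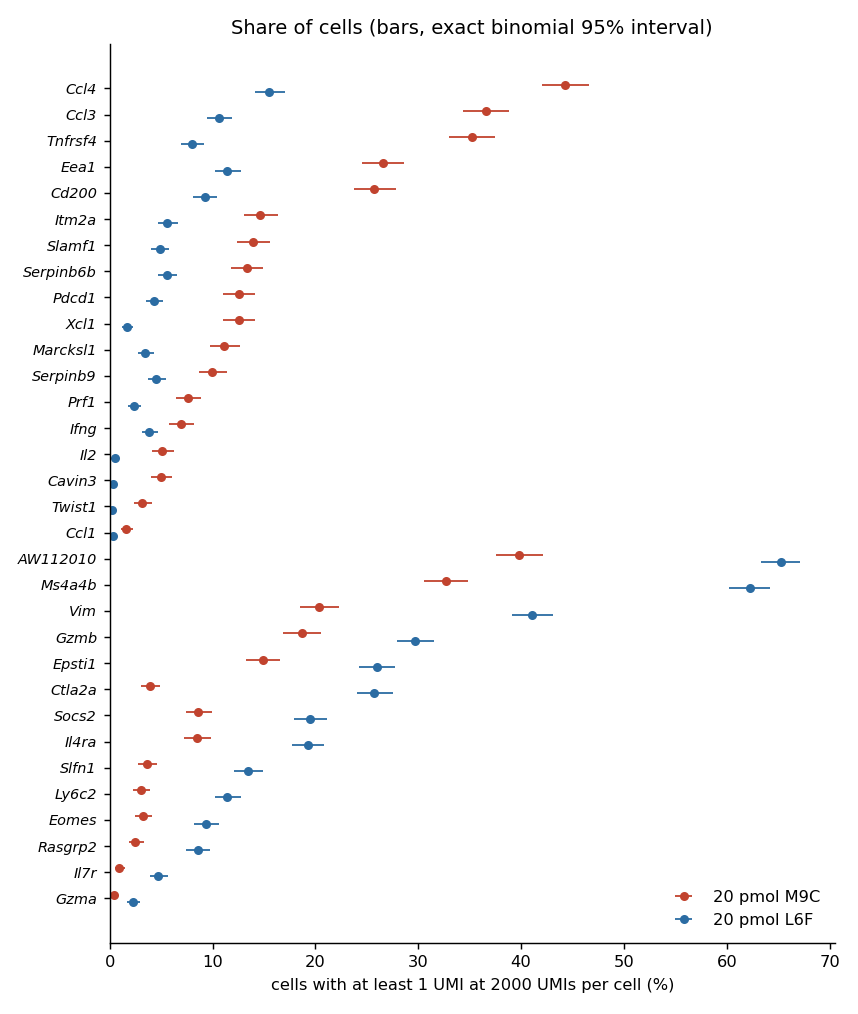
Share of cells with at least 1 UMI of each gene after thinning to 2000 UMIs per cell (horizontal, percent) in the 20 pmol M9C culture (red) and the 20 pmol L6F culture (blue), with exact binomial 95% intervals for counting error. The 18 upper genes were more often found in M9C cells and the 14 lower genes more often in L6F cells, and no pair of intervals overlaps. The genes were picked from those named for their ratios in these same cultures, so the split and the gaps follow in part from that choice. Lgals7, whose intervals overlap, is not shown.

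Surface receptors of activation formed a further group. Of 19 costimulatory and activation receptor genes, 18 were measured, 3 were 2-fold or more higher with M9C, none was 2-fold lower, and the median log2 ratio was 0.29. Tnfrsf4, the costimulatory receptor OX40, had 161, 219.7 and 279 CPM at 0.2, 2 and 20 pmol M9C, 51.6 and 39.6 CPM at 20 and 80 pmol L6F, and 7.62 CPM in rested cells. It was 5.41-fold higher with M9C (5.02 to 5.84) at 20 pmol, and even 0.2 pmol M9C gave a higher level than 80 pmol L6F. Tnfrsf4 UMIs were found in 35.2% of M9C cells (33.00% to 37.4%) and 8.02% of L6F cells (6.97% to 9.17%). Slamf1, a self-binding receptor of the SLAM family, had 72.2 CPM with M9C and 26.1 CPM with L6F, and was 2.76-fold higher with M9C (2.46 to 3.11). Cd5, a receptor that dampens T cell receptor signals and follows their strength, had 179 CPM with M9C and 87.3 CPM with L6F, and was 2.06-fold higher with M9C (1.92 to 2.20). The other receptors were closer. Tnfrsf9, which encodes 4-1BB, had a log2 ratio of 0.86, Cd69 had 0.31, Cd28 had 0.03 and Icos had -0.30. Il2ra, the high-affinity chain of the IL-2 receptor, was near equal at 179 CPM with M9C and 176 CPM with L6F, although both were well above its 20.7 CPM in rested cells.

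Of 15 inhibitory receptor genes, 8 were measured, 2 were 2-fold or more higher with M9C and none was 2-fold lower, with a median log2 ratio of 0.58. Cd200, whose product signals to myeloid cells, had 107, 137 and 160.1 CPM at 0.2, 2 and 20 pmol M9C, 52.8 and 40.1 CPM at 20 and 80 pmol L6F, and 8.71 CPM in rested cells, and was 3.03-fold higher with M9C (2.80 to 3.29) at 20 pmol. Pdcd1, the inhibitory receptor PD-1, had 47.1, 62.7 and 68.98 CPM at 0.2, 2 and 20 pmol M9C, 23.8 and 20.2 CPM at 20 and 80 pmol L6F, and 6.53 CPM in rested cells, and was 2.90-fold higher with M9C (2.57 to 3.28). Both genes were higher in every M9C culture than in either L6F culture. Pdcd1lg2, which is in no list and encodes the PD-1 ligand PD-L2, had 37.2 CPM with M9C and 14.5 CPM with L6F (2.57-fold higher with M9C (2.19 to 3.02)), and Cd274, the other ligand, had a log2 ratio of 0.94. Ctla4 did not share the direction of most of the list, with a log2 ratio of -0.07 and a counting interval that spans 0. Scaled as UMIs per cell, its ratio was above 0.

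None of the 10 listed genes of the receptor complex and coreceptors was 1.5-fold apart, and the median log2 ratio was -0.05. Cd3e had 283 CPM with M9C and 233 CPM with L6F, Cd8a had 441 CPM with M9C and 382 CPM with L6F, and Cd8b1 had 389 CPM with M9C and 454 CPM with L6F. Trac, the constant region of the alpha chain, which is not in that list, was past 1.5-fold at 296 CPM with M9C and 195 CPM with L6F, a log2 ratio of 0.60.

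Genes that report and restrain Erk signalling were higher with M9C as a list. All 15 measured members of 26 had log2 ratios above 0 in CPM, with a median of 0.44 beside 0.02 for all genes, 3 were 2-fold or more higher and 7 were 1.5-fold or more higher. Spry1, Dusp6, Ier3, Egr2, Fos and Spred1 reached 10 CPM with M9C only, so the level filter favours ratios above 0 among them. Of the members below 10 CPM in both cultures, Dusp1 (-0.24) and Dusp10 (-0.64) were below 0 and the others above it. With ratios centred on the median of all genes, Egr3 moved to just below 0. Spry1, an inhibitor of the Ras pathway, had 5.19, 9.01 and 15.2 CPM at 0.2, 2 and 20 pmol M9C, 2.997 and 2.03 CPM at 20 and 80 pmol L6F, and 0 CPM in rested cells, and was 5.06-fold higher with M9C (3.68 to 7.09) at 20 pmol. Dusp6, the phosphatase that inactivates Erk in the cytoplasm, had 9.58, 12.3 and 18.8 CPM at 0.2, 2 and 20 pmol M9C, 7.18 and 5.44 CPM at 20 and 80 pmol L6F, and 4.35 CPM in rested cells, and was 2.62-fold higher with M9C (2.09 to 3.30). Ier3, an immediate-early gene, was 2.65-fold higher with M9C (2.12 to 3.34), with 19.05 CPM with M9C and 7.18 CPM with L6F. These 3 genes were of low level, and other members differed by less. Egr2, an early transcription factor, had a log2 ratio of 0.86, Fos had 0.72, Egr1 had 0.23 and Egr3 had 0.01.

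The NFAT and calcium list did not move as a whole. Of 12 measured members of 16, 1 was 2-fold higher with M9C, 7 were above 0 and 5 below, and the median log2 ratio was 0.07. Nr4a2, an orphan nuclear receptor induced through calcium, had 5.98, 12.02 and 18.7 CPM at 0.2, 2 and 20 pmol M9C, 3.68 and 3.92 CPM at 20 and 80 pmol L6F, and 1.09 CPM in rested cells, and was 5.09-fold higher with M9C (3.81 to 6.88) at 20 pmol. Nr4a3, a relative, had a log2 ratio of 0.71 and was at 20.4, 19.9 and 20.2 CPM over the rising M9C doses, showing no dose order. Orai1, the pore of the store-operated calcium channel, had a ratio of 0.63 and Nfatc1, an NFAT factor, of 0.52. Ppp3cc, a catalytic subunit of calcineurin, was on the other side at -0.72. Rcan1 and Nr4a1 were below 10 CPM in both cultures.

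All 15 measured members of the 19 NF-kB responsive genes were above 0, also when scaled as UMIs per cell or centred on the median. In CPM, 3796 of all 7014 measured genes were above 0. Nfkbie, Nfkbiz and Bcl2a1d of the list reached 10 CPM with M9C only, so the level filter favours ratios above 0 among them. Of the members below 10 CPM in both cultures, Bcl3 (-0.45) and Birc2 (-0.05) were below 0 and the others above it. The median log2 ratio of the measured members was 0.58, 1 was 2-fold or more higher and 7 were 1.5-fold or more higher. Bcl2a1d, a survival gene of the BCL2 family with near-identical copies in the genome, was 2.43-fold higher with M9C (1.81 to 3.28), at 10.6 CPM with M9C and 4.37 CPM with L6F, and reads from its copies may be split between them. Rel, the NF-kB subunit c-Rel, had 86.2 CPM with M9C and 43.2 CPM with L6F and lay just inside 2-fold at 1.996-fold higher with M9C (1.81 to 2.20). Nfkbie, an inhibitor of NF-kB, had a log2 ratio of 0.93, and the subunit Nfkb1 of 0.58.

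Regulators of receptor and G protein signalling were divided. Of the 20 listed, all measured, 4 were 2-fold or more higher with M9C and none was 2-fold lower, with a median log2 ratio of 0.23. Rgs16, Rgs2 and Rgs1 speed up the switching off of G proteins downstream of chemokine receptors. Rgs16 had 13.4, 22.8 and 30.5 CPM at 0.2, 2 and 20 pmol M9C, 7.43 and 6.82 CPM at 20 and 80 pmol L6F, and 0 CPM in rested cells, and was 4.10-fold higher with M9C (3.34 to 5.08) at 20 pmol. Rgs2 was 3.82-fold higher with M9C (3.13 to 4.69), at 31.3 CPM with M9C and 8.18 CPM with L6F, and Rgs1 was 2.08-fold higher with M9C (1.90 to 2.27), at 105 CPM with M9C and 50.6 CPM with L6F. Sla, an adaptor that lowers receptor levels, was 2.01-fold higher with M9C (1.79 to 2.25), or log2 0.97 at 2000 UMIs per cell and 0.99 when centred on the median of all genes. The members on the other side were below 2-fold, with log2 ratios of -0.85 for Rasgrp1, an activator of Ras, -0.86 for Themis and -0.86 for Cd2. Rasgrp2, an activator of the small GTPase Rap1 that is in no list, had 19.7, 11.9 and 11.7 CPM at 0.2, 2 and 20 pmol M9C, 45.8 and 56.9 CPM at 20 and 80 pmol L6F, and 101 CPM in rested cells, and was 3.92-fold lower with M9C (3.28 to 4.70).

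Among effector and memory transcription factors, 14 of 21 were measured, 3 were 2-fold or more higher and 3 were 2-fold or more lower with M9C, and the median log2 ratio was 0.24. Twist1, a basic helix-loop-helix factor known to restrain inflammatory genes in T helper cells, had 3.69, 8.68 and 20.1 CPM at 0.2, 2 and 20 pmol M9C, 0.874 and 0.508 CPM at 20 and 80 pmol L6F, and 0 CPM in rested cells. That was 23.02-fold higher with M9C (13.5 to 42.7) at 20 pmol. Its level more than doubled at each step in M9C dose and was below 1 CPM with either L6F dose, and UMIs were found in 3.16% of M9C cells (2.41% to 4.07%) and 0.248% of L6F cells (0.0910% to 0.539%). Bhlhe40, a factor that supports cytokine production, was 2.21-fold higher with M9C (1.84 to 2.66), at 25.4 CPM with M9C and 11.5 CPM with L6F. Hivep3, a zinc finger protein, was 2.07-fold higher with M9C (1.92 to 2.22), at 150.3 CPM with M9C and 72.7 CPM with L6F.

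Lower with M9C were Eomes, Id2 and Batf3. Eomes, a T-box factor of memory and effector CD8+ cells, had 39.03, 20.9 and 16.1 CPM at 0.2, 2 and 20 pmol M9C, 48.96 and 48.5 CPM at 20 and 80 pmol L6F, and 69.6 CPM in rested cells, and was 3.04-fold lower with M9C (2.61 to 3.56) at 20 pmol. Id2, an inhibitor of E proteins in effector cells, had 9.52 CPM with M9C and 21.98 CPM with L6F, and was 2.31-fold lower with M9C (1.87 to 2.86). Batf3, an AP-1 factor, was 2.05-fold lower with M9C (1.84 to 2.27) at 20 pmol, or 1.96-fold lower without cells that carried a marker of another lineage. As UMIs per cell its log2 ratio was -0.94 and at 2000 UMIs per cell -0.69, both inside 2-fold. It had 92.7, 63.8 and 38.2 CPM at 0.2, 2 and 20 pmol M9C, 78.1 and 55.3 CPM at 20 and 80 pmol L6F, and 1.09 CPM in rested cells, so that its level declined as the M9C dose rose and the 0.2 pmol culture was above both L6F cultures. Tbx21, which encodes T-bet, had a log2 ratio of 0.26, and Irf4 of 0.38.

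Cytotoxic genes did not move together. Of 18 listed, 11 were measured, 3 were 2-fold or more higher and 2 were 2-fold or more lower with M9C, with a median log2 ratio of 0.11. Prf1, which encodes the pore-forming protein perforin, had 18.5, 28.7 and 47.5 CPM at 0.2, 2 and 20 pmol M9C, 10.9 and 8.05 CPM at 20 and 80 pmol L6F, and 19.6 CPM in rested cells, and was 4.35-fold higher with M9C (3.67 to 5.18) at 20 pmol. Serpinb6b and Serpinb9, neighbouring genes on mouse chromosome 13 whose products block proteases, with Serpinb9 a known inhibitor of granzyme B, were 2.72-fold higher with M9C (2.45 to 3.04) and 2.38-fold higher with M9C (2.12 to 2.68). Gzmb, which encodes granzyme B, ran the other way, with 238, 137 and 129 CPM at 0.2, 2 and 20 pmol M9C, 248 and 186 CPM at 20 and 80 pmol L6F, and 39.2 CPM in rested cells. At 20 pmol it was 1.93-fold lower with M9C (1.82 to 2.04), just inside 2-fold, and the highest M9C dose had the lowest level of the 5 peptide cultures.

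Gzmb UMIs were found in 18.7% of M9C cells (16.9% to 20.5%) and 29.7% of L6F cells (27.9% to 31.6%). Gzma, which encodes granzyme A, was 7.53-fold lower with M9C (5.05 to 11.7) at 2.09 CPM with M9C and 15.7 CPM with L6F. In the L6F culture 56.7% of its UMIs came from 25 cells, and without cells that carried a marker of another lineage it was 4.88-fold lower. Ctsw, which encodes cathepsin W, a protease of cytotoxic lymphocytes, had 48.00 CPM with M9C and 96.7 CPM with L6F, or 2.02-fold lower with M9C (1.83 to 2.22), and 1.95-fold lower without those cells, and its log2 ratio as UMIs per cell was -0.91. In M9C cells Gzmb and Ccl3 were found together in 6.71% of cells, where the product of their single shares was 6.82%. In L6F cells the share with both was 4.13% and the product 3.16%.

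Lower with M9C by a wide margin was Ctla2a, an inhibitor of cysteine proteases first described in activated T cells. It had 84.8, 29.1 and 21.8 CPM at 0.2, 2 and 20 pmol M9C, 189.6 and 224 CPM at 20 and 80 pmol L6F, and 109 CPM in rested cells. At 20 pmol it was 8.68-fold lower with M9C (7.68 to 9.85), and 10.1-fold lower without cells that carried a marker of another lineage. Ctla2a UMIs were found in 3.93% of M9C cells (3.09% to 4.92%) and 25.7% of L6F cells (24.01% to 27.5%). In CPM, both L6F cultures were above rested cells and all 3 M9C cultures below them. Counted as UMIs per cell this order can differ, and it was not worked out. Ly6c2, a surface protein of memory and effector CD8+ cells, had 63.7, 28.8 and 21.4 CPM at 0.2, 2 and 20 pmol M9C, 94.5 and 93.6 CPM at 20 and 80 pmol L6F, and 175 CPM in rested cells, and was 4.42-fold lower with M9C (3.89 to 5.05) at 20 pmol. Its UMIs were found in 3.001% of M9C cells (2.27% to 3.89%) and 11.4% of L6F cells (10.2% to 12.8%). Ctla2a and Ly6c2 UMIs met in 0.600% of M9C cells, where the product of the single shares was 0.118%, and in 5.12% of L6F cells, where the product was 2.95%.

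These genes belong to a list of 14 memory-like surface and protease inhibitor genes, of which 9 were measured. Ctla2a and Ly6c2 were 2-fold or more lower with M9C, none was 2-fold higher, 8 were below 0, and the median log2 ratio was -0.70. Cxcr3, the receptor that leads T cells to inflamed tissue, had a log2 ratio of -0.95, and the integrin chain Itga4 of -0.91. The integrin chain Itgb1 was on the other side at 0.47. In the list of trafficking receptors and integrins, 10 of 18 were measured, none was past 2-fold, 5 were 1.5-fold or more lower with M9C and none was 1.5-fold higher. Cxcr3, Itga4, Itgb7 and Itgb1 are measured members of both lists, so the counts of the lists are not independent. The median log2 ratio of that list was -0.63, and Selplg, which encodes a ligand of selectins, had 72.5 CPM with M9C and 121 CPM with L6F.

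Genes of the naive and recirculating state were on balance lower with M9C, though not all of them. Of 24, 19 were measured, 2 were 2-fold or more lower, none was 2-fold higher, 14 were below 0, and the median log2 ratio was -0.38. Il7r, the IL-7 receptor chain, had 12.6, 7.18 and 5.81 CPM at 0.2, 2 and 20 pmol M9C, 24.7 and 26.7 CPM at 20 and 80 pmol L6F, and 185 CPM in rested cells, and was 4.25-fold lower with M9C (3.31 to 5.51) at 20 pmol. In CPM it was far below its rested level with either peptide, and further below it with M9C. Bcl2, the survival gene, had 73.3 CPM with M9C and 136 CPM with L6F and 976 CPM in rested cells. Klf2, a factor that drives recirculation, had a log2 ratio of -0.85, and Tcf7, a factor of naive and stem-like cells, of -0.38. On the other side, Klf3 had a ratio of 0.67 and Bach2, a repressor that maintains naive cells, of 0.65.

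Of 14 cytokine receptor and STAT5 feedback genes, 11 were measured, 9 were below 0 and 2 above it, 2 were 2-fold or more lower with M9C, 5 were 1.5-fold or more lower (3 as UMIs per cell), none was 1.5-fold higher, and the median log2 ratio was -0.56. Socs2, a feedback inhibitor of cytokine signals, had 86.5, 49.7 and 40.03 CPM at 0.2, 2 and 20 pmol M9C, 121 and 118 CPM at 20 and 80 pmol L6F, and 30.5 CPM in rested cells, and was 3.02-fold lower with M9C (2.74 to 3.33) at 20 pmol. Il4ra, the IL-4 receptor chain, had 56.6, 49.9 and 48.9 CPM at 0.2, 2 and 20 pmol M9C, 114 and 98.7 CPM at 20 and 80 pmol L6F, and 153 CPM in rested cells, and was 2.34-fold lower with M9C (2.14 to 2.57). Socs1 had a log2 ratio of -0.59, Cish of -0.47 and Il2rb, the beta chain of the IL-2 receptor, of -0.56. The members above 0 were Il2ra at 0.02 and Il2rg, the shared gamma chain, at 0.16. In CPM, Socs2 stood above its rested level in all 5 peptide cultures and Il4ra below it, an order not worked out as UMIs per cell. Its neighbour Cradd, 61229 bases away on chromosome 10, was also past 2-fold, at 10.9 CPM with M9C and 23.9 CPM with L6F.

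All 19 measured members of 27 interferon responsive genes had log2 ratios below 0 in CPM, against 3218 of all 7014 measured genes, with a median of -0.39. None reached 2-fold and 6 were 1.5-fold or more lower with M9C, against 2.57% of all measured genes. Scaled as UMIs per cell, 17 were below 0, 2 were above it, and 1 was 1.5-fold lower. Gbp4, an interferon-induced GTPase, had 71.1 CPM with M9C and 123 CPM with L6F (1.73-fold lower with M9C (1.60 to 1.87)). The direction of the list was opposite to that of Ifng itself. Epsti1 and AW112010, known as interferon-induced and in no list, were past 2-fold. AW112010, a locus reported to encode a peptide in mouse macrophages, had 279.9, 317 and 289 CPM at 0.2, 2 and 20 pmol M9C, 653 and 816 CPM at 20 and 80 pmol L6F, and 582 CPM in rested cells, and was 2.26-fold lower with M9C (2.18 to 2.35). Epsti1 was 2.06-fold lower with M9C (1.91 to 2.22), at 73.5 CPM with M9C and 152 CPM with L6F, and inside 2-fold as UMIs per cell, at log2 -0.95, and at 2000 UMIs per cell, at -0.97.

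Vimentin and its companions were lower with M9C for the most part. Of 17 vimentin, galectin, S100 and annexin genes, 16 were measured, 2 were 2-fold or more lower, none was 1.5-fold higher, and the median log2 ratio was -0.33. Vim, the intermediate filament protein vimentin, had 206, 138 and 119 CPM at 0.2, 2 and 20 pmol M9C, 319 and 453 CPM at 20 and 80 pmol L6F, and 543 CPM in rested cells, and was 2.68-fold lower with M9C (2.53 to 2.84) at 20 pmol. Lgals3, which encodes galectin-3, was 2.09-fold lower with M9C (1.81 to 2.41) at 20 pmol, but had 77.6 CPM at 0.2 pmol M9C, above both L6F cultures at 43.3 and 74.1 CPM. Its log2 ratio was -0.96 as UMIs per cell and -0.98 in cells with 4000 or more UMIs, inside 2-fold. S100a6 had a log2 ratio of -0.83 and S100a11 of 0.22.

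The genes outside every list made up 36 of the 62 higher and 38 of the 53 lower genes. Higher with M9C, Cavin3, a coat protein of caveolae, had 8.61, 16.1 and 34.3 CPM at 0.2, 2 and 20 pmol M9C, 1.19 and 1.81 CPM at 20 and 80 pmol L6F, and 0 CPM in rested cells, and was 28.9-fold higher with M9C (18.3 to 48.5) at 20 pmol. Lipg, which encodes endothelial lipase, was 3.18-fold higher with M9C (2.54 to 4.01) and was listed at 0 in rested cells. Marcksl1, an actin-binding protein, was 2.90-fold higher with M9C (2.54 to 3.31), and Plek, the protein kinase C substrate pleckstrin, 2.88-fold higher with M9C (2.35 to 3.54). Itm2a, a membrane protein induced in activated T cells, was 2.59-fold higher with M9C (2.32 to 2.89) with 77.03 CPM with M9C and 29.8 CPM with L6F, and Rgcc, a regulator of the cell cycle, 2.69-fold higher with M9C (2.37 to 3.06). Eea1, a tether of early endosomes, was 2.29-fold higher with M9C (2.12 to 2.46), with UMIs in 26.6% of M9C cells (24.6% to 28.7%) and 11.4% of L6F cells (10.2% to 12.8%). Abcd3, a peroxisomal transporter, was 2.94-fold higher with M9C (2.56 to 3.38).

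Lower with M9C outside the lists, Ms4a4b, a tetraspan membrane protein of T cells, had 244, 214 and 228 CPM at 0.2, 2 and 20 pmol M9C, 582 and 621 CPM at 20 and 80 pmol L6F, and 1961 CPM in rested cells. It was 2.55-fold lower with M9C (2.45 to 2.66) at 20 pmol, and its neighbour Ms4a4c, 16307 bases away on chromosome 19, was 2.84-fold lower with M9C (2.30 to 3.53). Ms4a4b was the second most abundant of the lower genes in the L6F culture and had its highest CPM in rested cells. Its UMIs were found in 32.7% of M9C cells (30.5% to 34.9%) and 62.2% of L6F cells (60.3% to 64.2%). Slfn1, a schlafen gene linked to growth arrest of T cells, had 21.3, 16.9 and 18.5 CPM at 0.2, 2 and 20 pmol M9C, 66.1 and 78.1 CPM at 20 and 80 pmol L6F, and 262 CPM in rested cells, and was 3.57-fold lower with M9C (3.10 to 4.13). Arl4c, a small GTPase, was 2.81-fold lower with M9C (2.44 to 3.25), with 624 CPM in rested cells. Trp53i11 was 3.62-fold lower with M9C (2.87 to 4.60), Gprin3 2.74-fold lower with M9C (2.43 to 3.09) and Tbxa2r, the thromboxane receptor, 2.63-fold lower with M9C (2.24 to 3.11). Pdcd4, an inhibitor of translation initiation, was 2.21-fold lower with M9C (1.97 to 2.48), Fyb, an adaptor of integrin activation, 2.19-fold lower with M9C (1.99 to 2.41) and Glrx, a glutaredoxin, 2.29-fold lower with M9C (1.99 to 2.66). Also past 2-fold were Eif4e3, a cap-binding protein, Fam189b, Pros1, which encodes protein S, and Plaat3, a phospholipase, with log2 ratios of -1.15, -1.29, -1.20 and -1.06. At 2000 UMIs per cell the log2 ratios of Glrx (-0.89), Pdcd4 (-0.995) and Eif4e3 (-0.996) were just inside 2-fold, as was that of Plaat3 as UMIs per cell (-0.97).

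A few ratios rested on few cells. For each gene, the 1 cell with the most UMIs in each culture was left out. This kept the direction of all 62 higher genes and of 52 of 53 lower genes, and kept 61 and 52 of them past 2-fold. Removing 1 cell does not probe genes held by a small group of cells, such as Ccl1. Lyz2, lysozyme of myeloid cells, was the exception among the lower genes. It had 0.774 CPM with M9C and 14.9 CPM with L6F, but 231 of its 238 L6F UMIs lay in 1 cell. Without the top cell of each culture its log2 ratio was 0.67. Lgals7, the higher gene that dropped below 2-fold, went to a log2 ratio of 0.98, and was the single higher gene found in no larger share of M9C cells, with 2.51% of M9C cells (1.84% to 3.33%) and 2.60% of L6F cells (2.01% to 3.32%).

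Genes of growth and division differed little in size between the peptides, though ribosome biogenesis genes leaned towards M9C. None of the 27 S phase genes, the 24 G2 and M phase genes, the 20 ribosome biogenesis genes, the 19 serine, one-carbon and nucleotide synthesis genes, the 22 measured cholesterol and fatty acid synthesis genes or the 14 measured glycolysis genes was 1.5-fold apart. Their median log2 ratios were -0.05, -0.12, 0.15, 0.00, 0.08 and 0.09, in that order. Scaled as UMIs per cell, the S phase median was 0.04, so its sign depended on the scaling. Of the 20 ribosome biogenesis genes, 18 were above 0 in CPM and 20 as UMIs per cell. Of the 24 G2 and M phase genes, 19 were below 0 in CPM and 15 as UMIs per cell. Myc, the driver of T cell growth, had 95.5 CPM with M9C and 89.5 CPM with L6F, and Ccna2, the cyclin of S and G2 phase, 114 CPM with M9C and 111 CPM with L6F. The median cell thinned to 2000 UMIs held 10 S phase UMIs with M9C and 11 with L6F, and 5 G2 and M phase UMIs in both. It held 35 ribosome biogenesis UMIs with M9C and 31 with L6F.

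Of the 11 measured G1 genes, Cdkn1b, which encodes the cell cycle inhibitor p27, was the member past 1.5-fold, at 18.5 CPM with M9C and 32.6 CPM with L6F (1.76-fold lower with M9C (1.51 to 2.06)), and the list's median log2 ratio was -0.17. Of 13 measured integrated stress response genes, 1 was 2-fold lower with M9C and none was 1.5-fold higher, with a median of -0.16. Xbp1, a factor of the unfolded protein response, had 32.3 CPM with M9C and 65.7 CPM with L6F and was 2.03-fold lower with M9C (1.81 to 2.28), or 1.95-fold lower without cells that carried a marker of another lineage. Its log2 ratio was also inside 2-fold as UMIs per cell, at -0.93, at 2000 UMIs per cell, at -0.87, and with HTODemux assignment, at -0.98. Hspa5, the chaperone BiP, leaned the other way with a log2 ratio of 0.43. Among 9 measured survival and death genes none was past 2-fold, and the median was 0.11, with Bcl2l11, which encodes BIM, at -0.38.

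**Figure D5:**
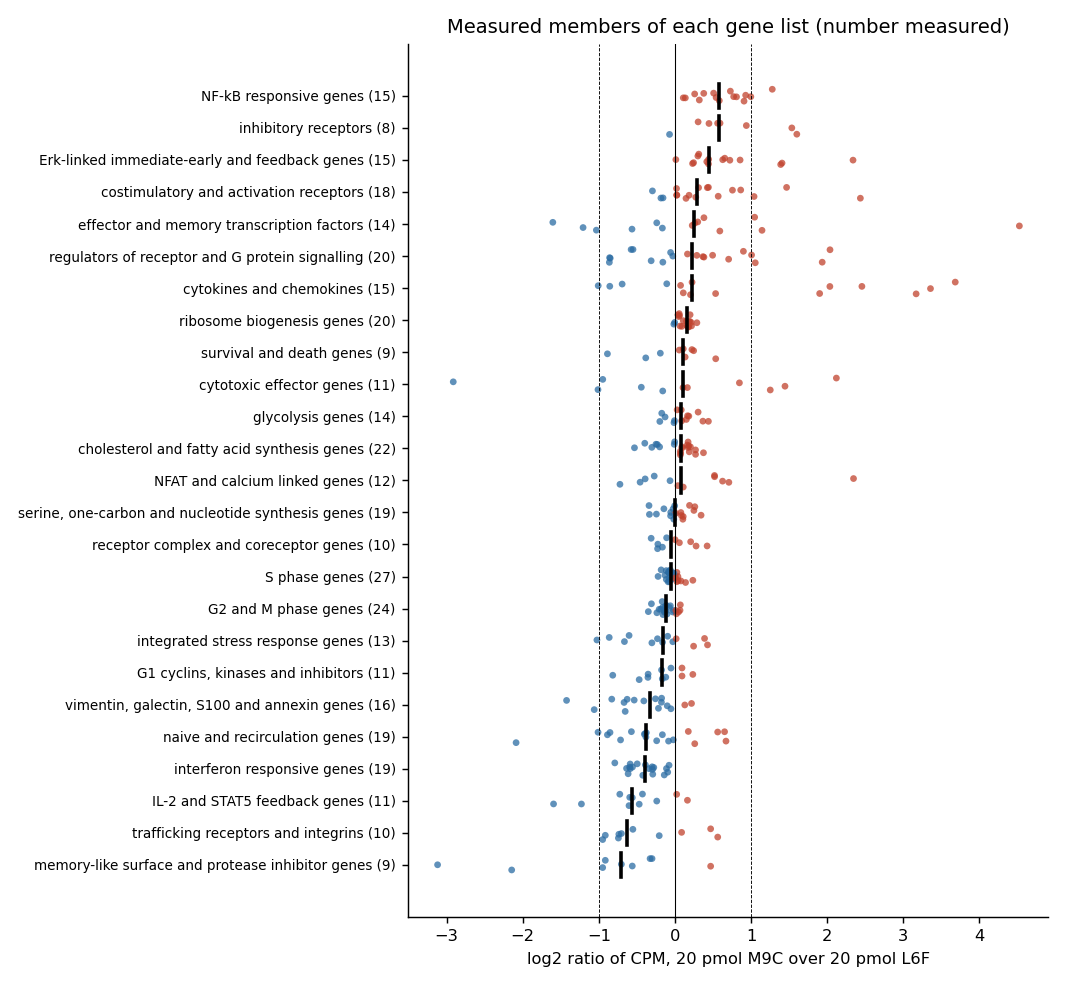
Log2 ratio of CPM of 20 pmol M9C over 20 pmol L6F (horizontal) of every measured member of the 25 gene lists (rows, number measured in brackets), with 1 point per gene, red above 0 and blue below, a black bar at each list's median and dashed lines at 2-fold. Points of the NF-kB and Erk lists lie on the right of 0 and points of the interferon list on the left, while the S phase, G2 and M phase and ribosome biogenesis lists stay close to 0.

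Promoter windows of 300 bases, from 250 before to 50 after each start in the RefSeq table (GRCm38.p6), were searched for the core of the NFAT site, GGAAA, the AP-1 core TGANTCA and an NF-kB-like pattern (3 G, then 5 letters of any kind, then 2 C) on both strands. The table matched 48 of the 62 higher and 44 of the 53 lower genes, with 52 and 53 windows. GGAAA was present in 73.1% of windows of the higher genes, 56.6% of windows of the lower genes and 61.3% of all 32851 windows. TGANTCA was present in 1.92%, 20.8% and 7.81% of them in that order, and the NF-kB-like pattern in 63.5%, 67.9% and 50.8%. The patterns can overlap, and a match is a run of letters and not a shown binding site. The windows of Il2, Ccl3 and Twist1, a cytokine, a chemokine and a transcription factor higher with M9C, and of Ctla2a, lower with M9C, are shown because these genes had wide ratios in both pairs of cultures. They are printed 5′ to 3′ along the gene, with matches to GGAAA, its reverse complement TTTCC and TGANTCA in capitals. Il2 is at chr3:37125905-37126204, Ccl3 at chr11:83649329-83649628 and Ctla2a at chr13:60936576-60936875, all on the minus strand, and Twist1 at chr12:33957421-33957720 on the plus strand. The table holds 2 windows for Ctla2a, of which the first is shown.
Il2: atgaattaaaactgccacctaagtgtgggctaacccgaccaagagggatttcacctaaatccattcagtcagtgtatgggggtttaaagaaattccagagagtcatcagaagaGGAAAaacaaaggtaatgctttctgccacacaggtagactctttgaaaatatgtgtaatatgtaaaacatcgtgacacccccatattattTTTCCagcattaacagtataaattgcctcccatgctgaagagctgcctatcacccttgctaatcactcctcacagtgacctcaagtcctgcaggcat
Ccl3: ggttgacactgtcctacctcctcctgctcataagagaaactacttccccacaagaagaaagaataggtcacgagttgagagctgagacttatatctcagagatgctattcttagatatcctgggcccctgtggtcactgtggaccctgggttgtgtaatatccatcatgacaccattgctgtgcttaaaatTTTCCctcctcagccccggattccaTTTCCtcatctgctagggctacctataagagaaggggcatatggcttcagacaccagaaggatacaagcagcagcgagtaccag
Twist1: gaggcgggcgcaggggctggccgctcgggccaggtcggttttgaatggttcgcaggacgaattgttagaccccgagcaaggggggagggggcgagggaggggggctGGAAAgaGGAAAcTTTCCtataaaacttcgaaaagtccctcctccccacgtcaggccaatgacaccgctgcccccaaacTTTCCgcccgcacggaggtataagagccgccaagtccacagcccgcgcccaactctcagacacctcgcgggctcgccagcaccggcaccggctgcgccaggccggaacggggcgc
Ctla2a: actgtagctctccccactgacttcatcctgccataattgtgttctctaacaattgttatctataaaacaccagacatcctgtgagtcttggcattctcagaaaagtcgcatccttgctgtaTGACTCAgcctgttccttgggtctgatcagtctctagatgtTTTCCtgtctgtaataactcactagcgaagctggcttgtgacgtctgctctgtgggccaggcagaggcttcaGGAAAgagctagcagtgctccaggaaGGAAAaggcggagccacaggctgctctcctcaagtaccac
Il2 and Ccl3 each held 2 matches to GGAAA or its reverse complement, Twist1 held 4, and Ctla2a held 3 and 1 match to TGANTCA.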

How the data were processed

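The deposited matrix held 32291 rows, 32285 genes and 6 hashtags, as UMI counts for 13439 cell barcodes. Per the file headers and the submitters' processing notes, the authors used bcl2fastq and Cell Ranger 6.0.1 to make these counts, with GRCm38 (mm10) as the genome build. Which gene annotation and cell calling they used is not given in the sources used here. Hashtags were tied to conditions by the deposited text. From there, UMIs were summed per culture and scaled to CPM. Ratios carry exact Clopper-Pearson 95% intervals, levels exact Poisson intervals and shares exact binomial intervals, all for counting error alone. The ratio code was tested on simulated data. A called gene is past 2-fold at 10 CPM or more in either culture. Barcodes with mixed hashtags fell out by the 80% rule, doublets within a culture stayed in, and no doublet caller was run.

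Named genes were the 25 highest and 25 lowest ratios by the interval bound nearest 0 at 20 CPM or more, plus list members past 2-fold and the 3 most extreme of each list. Cradd, Lgals7, Hist1h3d, Lyz2, Trac and further list members within 2-fold were named after their values were seen. Some genes that meet this rule are not reported here. The members and lists were chosen with earlier results of these data known. Hand-made lists held 469 genes. Gene positions are from GENCODE vM21, which held 32235 of the gene IDs. Alternatives covered the hashtag rule (also Seurat 5.3.0 HTODemux), the cell filters, scaling, thinning, the level filter and other-lineage cells. Python 3.11.15, numpy 2.4.6, scipy 1.17.1, pandas 2.3.3, matplotlib 3.10.9 and R 4.3.3 were used. Symbols that occur more than once (38) were left out of the lists.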

Additional observations from a re-analysis of the deposited data

How the results depend on the processing

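The sign of each of the 67 named genes past 2-fold was the same in each alternative run, and 55 of them stayed past 2-fold throughout. Shares of cells had the same direction for the 50 genes compared without thinning and at 4000 UMIs per cell, although their size follows depth by construction. HTODemux assignment gave 66 higher and 48 lower genes, of which 60 and 47 were shared with the counts above. Cells with 4000 or more UMIs, an alternative chosen after seeing the data, gave 61 and 46. As UMIs per cell, 35 genes and 9 list members were 2-fold lower with M9C. Thinned to 2000 UMIs, 246 genes were 1.5-fold higher. At 50 CPM the 2-fold counts were 20 higher and 19 lower genes, the 1.5-fold counts 47 and 52, and the list members 14 and 9, out of 3097 genes. With no level filter they were 1692 and 1547, 2559 and 2365, and 47 and 39, out of 16213 genes, most of them held by few UMIs.

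No paired analysis was possible because each condition was 1 culture with no replicate. For the same reason differences between cultures that have nothing to do with the peptide cannot be told apart from it, the doses of the further pair differ, and the rested culture is too shallow to rank genes below 3.26 CPM.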
